A study of Mus musculus with 11 samples.

Results

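The cells described here were gated as intermediate progenitors (IPs) of the mouse dorsal cortex. They carry few or no transcripts of the mitotic genes Top2a and Mki67 and are called mitosis-low IPs below. A barcode was counted as 1 when it had at least 1000 detected genes and at most 10% mitochondrial UMIs (unique molecular identifiers, each counting 1 captured RNA molecule), at least 3 UMIs of Eomes, at least 1 UMI of Neurog2, at most 1 UMI over Dlx1, Dlx2, Dlx5 and Dlx6os1 together, and at most 2 UMIs over Top2a and Mki67 together. The rule gave 1861 of 16335 cells, 931 of 7554 in the wild-type (WT) library and 930 of 8781 in the library of the Syncrip conditional knockout (cKO). Syncrip encodes an RNA-binding protein of the hnRNP family, and the study asked how its loss affects progenitor fate in the neocortex. The single-cell data came from dorsal cortical tissue of 1 WT embryo and 1 cKO embryo of the same pregnant C57BL/6 mouse at E14.5, each made into 1 droplet-based 3′ library. The cKO embryo carried Syncrip alleles with exons 2, 3 and 4 between loxP sites (Syncrip fl/fl) and Emx1-Cre, which recombines in the dorsal telencephalic lineage and not in cells born in the ganglionic eminence. The WT embryo was its littermate control. With 1 library per genotype there is no replicate check: genotype, embryo and library cannot be told apart, no test was possible between them, and every 95% interval below covers counting error only.

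IPs, also called basal progenitors, are born from apical progenitors at the ventricle, move to the subventricular zone and divide there, mostly to give pairs of glutamatergic neurons. Eomes (also named Tbr2) is the T-box transcription factor by which they are recognised, and Neurog2 is the proneural bHLH factor that drives glutamatergic neurogenesis in this lineage. IPs signal to neighbouring apical progenitors through Delta ligands, and Gadd45g, Btg2 and Neurod4 belong to the transcripts switched on as cells commit to neurogenesis.

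The barcodes of both libraries were deep. The WT library held 8289 barcodes and 100172392 UMIs and the cKO library 9659 barcodes and 111313526 UMIs, and 22 barcode sequences occurred in both, none of them among the mitosis-low IPs of both. The methods of the study give a recovery of cells per library well below these barcode numbers, and the bearing of this on shares of cells and on doublets was not tested. The mitosis-low IPs together held 12953301 UMIs in the WT and 12217865 UMIs in the cKO library. Their median was 12503 UMIs and 4143 genes per cell in the WT and 11624.5 UMIs and 3973 genes in the cKO library, with a median of 1.73% and 1.66% mitochondrial UMIs. Depth was thus near that of all cells, whose medians were 12277 and 11566 UMIs. The embryos also differed in sex: Xist had 0 UMIs in mitosis-low IPs of the WT and 12809 in those of the cKO library, while Y-linked genes had 4087 and 21 UMIs, so that sex and genotype cannot be told apart.

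The values that chose the cells are a description and not a finding. Eomes had a median of 10 UMIs per cell in the WT library (quartiles 6 and 14, highest 52) and of 9 in the cKO library (6 and 14, highest 66). Neurog2 had a median of 6 UMIs in the WT (quartiles 2 and 13) and of 9 in the cKO library (3 and 16). Summed and scaled to counts per 1000000 UMIs (CPM), Eomes stood at 777 and 820 CPM and Neurog2 at 634 and 835 CPM. No UMI of Top2a or Mki67 was seen in 79.8% of WT barcodes and 79.6% of cKO barcodes, and no UMI of the Dlx genes in 91.6% and 85.5%. The absence of mitotic transcripts therefore meant 0 in most but not all of these cells.

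Cells just inside and just outside each limit of the gate were compared by Gadd45g. At 3 UMIs of Eomes, just inside, there were 61 WT and 71 cKO cells with Gadd45g at 285 and 556 CPM, and at 2 UMIs, just outside, 68 and 66 cells with 330 and 527 CPM. At 1 UMI of Neurog2 there were 141 and 104 cells with Gadd45g at 155 and 255 CPM and Neurod1 at 509 and 500 CPM, against 165 and 130 cells with no UMI, at 119 and 194 CPM of Gadd45g and 499.9 and 549 CPM of Neurod1. The cells at the Neurog2 limit thus carried little Gadd45g and much Neurod1 on both sides of it. At 2 UMIs of Top2a and Mki67, 37 and 50 cells had Gadd45g at 453 and 812 CPM, and at 3 UMIs 17 and 13 cells had 986 and 902 CPM. At 1 UMI of the Dlx genes 78 and 135 cells had Gadd45g at 768 and 1141 CPM, and at 2 UMIs 9 and 19 cells had 753 and 1122 CPM. Pcna, a replication clamp gene, stood at 58.8 CPM (WT) and 31.8 CPM (cKO) inside the Eomes limit and at 75.3 and 81.3 CPM outside it. Across the Top2a and Mki67 limit Pcna stood at 85.3 and 74.1 CPM inside and at 68.9 and 149 CPM outside, so that the libraries differed in direction there.

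Genes of other cell types were low in the mitosis-low IPs apart from single barcodes. The 13 genes listed for the ganglionic eminence summed to 72.4 CPM (WT) and 125 CPM (cKO), against 489 and 581 CPM in all other cells. Nkx2-1 was at 0 UMIs in both libraries and Gsx2 at 0 in the cKO. The microglial list of 10 genes summed to 8.49 and 12.8 CPM, led by Cx3cr1, with C1qa at 0 UMIs in the WT, and the Cajal-Retzius list of 8 genes to 52.7 and 45.8 CPM, led by Reln in the WT and Ebf3 in the cKO cells. Vessel, meningeal and blood genes sat in few barcodes. The 8 endothelial genes, led by Egfl7 in the WT and Cldn5 in the cKO cells, summed to 8.26 and 26.9 CPM, with 237 of the 329 cKO UMIs in 1 cell. The 6 pericyte genes, led by Vtn and by Rgs5, summed to 4.09 and 13.8 CPM, with 29 of 53 and 142 of 169 UMIs in 1 cell each. The 6 fibroblast genes, led by Col3a1, summed to 19.5 and 3.44 CPM, with 239 of 253 WT UMIs in 1 cell. Among the 6 red blood cell genes, led by Hbb-bs, the sums were 488 and 93.1 CPM, with 5303 of 6321 WT UMIs in 1 cell. No gene of these last 4 lists was at 0 in either library. Without the 2 WT and 1 cKO barcodes that carried most of them, an alternative chosen after seeing the data, the counts reported below differed by less than 1.5 times. A doublet caller marked 65 mitosis-low IPs of the WT library (6.98%) and 49 of the cKO library (5.27%), against 3.36% and 4.24% of all cells. Doublets were kept, and their part in the results was examined only by leaving the marked barcodes out.

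Mitosis-low IPs made up a smaller share of the cKO than of the WT library. They were 12.3% of the WT cells (Clopper-Pearson 95% interval 11.6 to 13.1) and 10.6% of the cKO cells (9.95 to 11.3). With the gate applied to thinned cells, the shares were 8.71% (8.04 to 9.40) and 8.06% (7.46 to 8.68), whose intervals overlap. IPs that pass the same gate but carry at least 3 UMIs of Top2a and Mki67, here cycling IPs, were 135 of the WT cells (1.79%) and 183 of the cKO cells (2.08%). Cells with at least 1 UMI of both Sox2 and Pax6, none of Eomes, at most 1 of Neurod2 and at most 1 over the Dlx genes (Sox2+Pax6+ cells, the gate of apical progenitors) were 452 (5.98%) and 652 (7.43%). Cells with at least 3 UMIs of Neurod1 and at most 2 of Eomes, under the same Dlx and mitotic limits (Neurod1+ cells, the gate of young projection neurons), were 835 (11.1%) and 1146 (13.1%). Cells with at least 3 UMIs over the Dlx genes and none of Eomes (Dlx+ cells, from the ganglionic eminence) were 962 (12.7%) and 1353 (15.4%). The cKO library thus held larger shares of all 4 comparison gates and a smaller share of mitosis-low IPs. For cycling IPs, however, the Clopper-Pearson 95% intervals of both libraries overlap. The doublet caller also marked 8 cycling IPs of the WT library (5.93%) and 22 of the cKO library (12.02%). The bearing of these doublets on the share of cycling IPs was not tested. Counted over mitosis-low IPs, cycling IPs, Sox2+Pax6+ and Neurod1+ cells alone, which leaves out the Dlx+ cells, mitosis-low IPs were 39.6% (37.6 to 41.6) of 2353 in the WT library and 31.9% (30.3 to 33.7) of 2911 in the cKO library. Of the cells of both IP gates, cycling IPs were 12.7% (10.7 to 14.8) of 1066 in the WT and 16.4% (14.3 to 18.8) of 1113 in the cKO library. How the tissue was dissected bears on all of these shares and was not tested.

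The markers that the gate did not use went with it. Gadd45g (chr13:51846678-51848468, mm10), a growth arrest gene of the GADD45 family, stood at 584 CPM in mitosis-low IPs of the WT and 923 CPM in those of the cKO library, against 126 and 145 CPM in all other cells, 4.62-fold and 6.37-fold higher. Btg2, an antiproliferative gene that marks neurogenic progenitors, stood at 389 and 475 CPM against 97.0 and 89.6 CPM, 4.02-fold and 5.30-fold higher. Neurod4, a bHLH factor, stood at 28.3 and 19.1 CPM against 1.06 and 0.806 CPM, 26.9-fold and 23.7-fold higher. To compare shares of cells with a UMI across depths, each cell was thinned to 5000 UMIs, which left 921 mitosis-low IPs in each library and dropped 10 and 9 shallower ones. After thinning, Gadd45g had a UMI in 70.6% (67.5 to 73.5) of the cells in the WT and 84.4% (81.9 to 86.7) in the cKO library, Btg2 in 74.2% and 84.5%, and Neurod4 in 12.2% (10.1 to 14.4) and 7.49% (5.88 to 9.39). In Dlx+ cells, of another lineage and with unthinned medians of 8781 and 8250 UMIs, the thinned shares were 27.2% and 26.7% for Gadd45g, 20.6% and 21.1% for Btg2 and 0% (up to 0.437%) and 0.253% for Neurod4. Gadd45g and Btg2 are also expressed in the ganglionic eminence, so that only the Neurod4 share stands for background. Gadd45g, Btg2 and Neurod4 were at their highest in the 2 IP gates, and higher in mitosis-low than in cycling IPs, as the plot of 10 genes by gate shows.

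**Figure D1:**
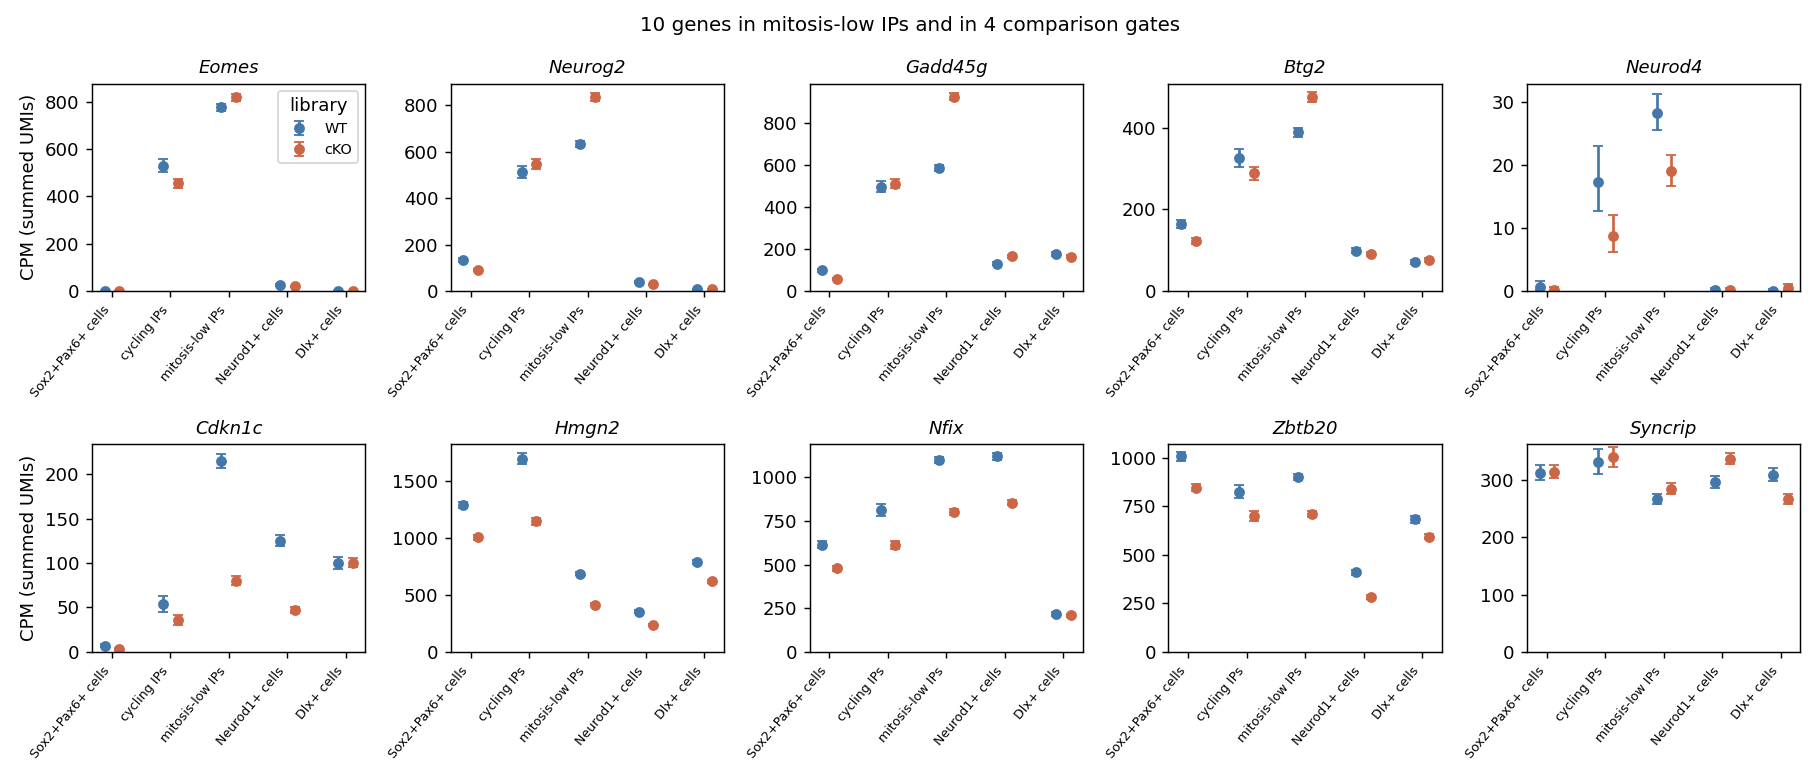
Summed UMIs of 10 genes scaled to CPM (y axis, from 0) in Sox2+Pax6+ cells, cycling IPs, mitosis-low IPs, Neurod1+ cells and Dlx+ cells (x axis), WT in blue and cKO in orange, with 95% counting intervals as bars and 1 library per genotype. Gadd45g stood at 584 and 923 CPM in mitosis-low IPs, and Cdkn1c at 215 and 80.2 CPM, while Cdkn1c in Dlx+ cells was at 99.9 and 101 CPM.

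Beyond the markers, 351 of 12658 genes measured (2.77%) were at least 2-fold higher in mitosis-low IPs than in the other cells of both libraries, and 1560 (12.3%) at least 2-fold lower. Genes counted as measured had at least 200 UMIs over all cells of each library, and the median log2 fold over them was −0.02 in the WT and −0.03 in the cKO library. These counts describe what the gate selects, since the cells were chosen by their transcripts. The largest folds after Neurod4 were those of Neurog1, a proneural factor related to Neurog2, at 17.0 and 29.1 CPM (16.6-fold and 16.9-fold higher), and of Kif26b, a member of the kinesin family, at 468 and 444 CPM (16.2-fold and 17.5-fold). Kif26b had a UMI in 70.2% and 64.4% of thinned mitosis-low IPs, against 6.57% and 5.29% of Neurod1+ cells and 2.54% and 1.12% of Sox2+Pax6+ cells. Kif26b, which the rule did not use, was thus seen in most mitosis-low IPs and in few Sox2+Pax6+ or Neurod1+ cells. Its share in cycling IPs, which pass the same gate apart from the mitotic limit, is not given here.

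The next genes by fold served varied functions. Btbd17 stood at 121 and 118 CPM (10.4-fold and 10.7-fold higher), and Agbl4, a carboxypeptidase that trims glutamates from tubulin tails, at 364 and 493 CPM (8.18-fold and 9.40-fold). The extracellular matrix gene Mfap4 stood at 194 and 161 CPM (6.54-fold and 7.42-fold), and Mfng, a fringe glycosyltransferase that modifies Notch receptors, at 163 and 203 CPM (5.58-fold and 6.89-fold). The remaining genes were all at most 7.34-fold higher in either library. They were Megf11, the complement inhibitor Serping1, the zinc finger factor Glis3, the thyroid hormone receptor Thrb, the gasdermin Gsdmd, Sypl2, the rhomboid-like gene Rhbdl3 and Phldb2, with Thrb for example at 62.5 and 70.1 CPM (7.12-fold and 5.98-fold). At the other end, the 10 genes of lowest fold were microglial (Trem2, Cd86 and Ccl3), of the ganglionic eminence or its interneurons (Six3, Erbb4 and Nxph1) or others (Cntnap5c, Dgkg, Dock10 and Tubb6). Erbb4, a neuregulin receptor of interneurons, stood at 18.4 and 26.6 CPM in mitosis-low IPs and at 624 and 735 CPM in the other cells. Six3 had 1 and 8 UMIs over all mitosis-low IPs, and the folds of genes with so few UMIs are imprecise.

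**Figure D2:**
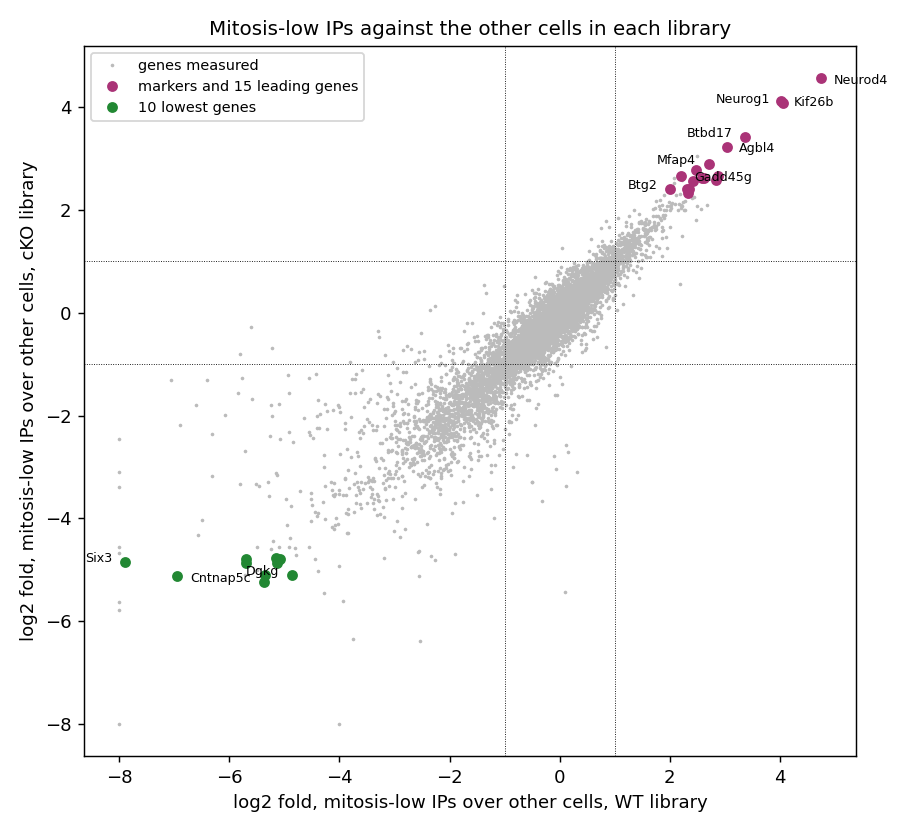
Each point is 1 of 12658 genes measured, with the log2 fold of mitosis-low IPs over all other cells in the WT library on the x axis and in the cKO library on the y axis, and dotted lines at 2-fold. Genes below the axis range are drawn at its lower edge. Neurod4, Neurog1 and Kif26b lie at the upper right, at over 16-fold in both libraries, and Six3 and Cntnap5c at the lower left.

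Of the 15 genes of the intermediate progenitor list, 12 were at least 2-fold higher than in the other cells and none 2-fold lower, with a median log2 fold of 1.71 in the WT and 1.76 in the cKO library. They held the Delta ligands Dll1 (36.2 and 37.5 CPM, 2.57-fold and 2.42-fold) and Dll3 (32.3 and 34.2 CPM, 2.93-fold and 2.86-fold), the bHLH factor Nhlh1 (4.01-fold and 4.25-fold), the somatostatin receptor Sstr2 (3.34-fold and 3.18-fold) and the neuronal RNA-binding protein gene Elavl2 (2.63-fold and 2.72-fold). The 3 others were Insm1, a zinc finger factor of basal progenitors (1.31-fold and 1.53-fold), the G protein regulator Rgs16 (1.92-fold and 1.65-fold) and Cdkn1c, a cyclin-dependent kinase inhibitor (2.01-fold in the WT and 1.27-fold in the cKO library). Over all genes measured, 2.77% were 2-fold higher and 12.3% lower. Since the list was drawn up for such cells, its count only says that they carry its transcripts.

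Notch pathway genes lay on both sides of the other cells' level. Of 23 measured, 5 were at least 2-fold higher and 5 at least 2-fold lower, with median log2 folds of 0.32 and 0.49. Over all genes measured, 2.77% were 2-fold higher and 12.3% lower, so these counts do not stand against the same share. The higher ones were the ligands Dll1 and Dll3, Mfng, Hes6, which antagonises Hes1 (2.87-fold and 3.38-fold higher), and the feedback inhibitor Nrarp. The lower ones were the ligands Jag1 and Jag2, Lfng, Dtx4 and the repressor Hes1, which stood at 5.71 and 10.9 CPM against 28.1 and 41.2 CPM in the other cells. Notch1, the receptor, was 1.78-fold and 1.69-fold higher, and Hes5, another Notch target, stood at 27.4 and 32.1 CPM against 31.9 and 35.03 CPM. Of 16 measured proneural, E protein and Id genes, 4 were 2-fold higher (Neurog1, Neurod1, Neurod4 and Nhlh1) and 3 lower (Bhlhe22, Id2 and Id3, the Id genes being inhibitors of bHLH factors), with median log2 folds of 0.13 and −0.08.

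Genes of the neighbouring stages were present at intermediate levels. Of 22 apical progenitor genes, 3 were at least 2-fold higher than in the other cells (Pax6, Emx2 and Lhx2) and 3 lower (Hes1, Ptprz1 and Ednrb), with median log2 folds of −0.43 and −0.38. For this list and that of projection neurons, the shares over all genes measured are 2.77% higher and 12.3% lower. Per thinned cell, the list gave a median of 12 UMIs in WT and 13 in cKO mitosis-low IPs, against 66 and 68 in Sox2+Pax6+ cells and 6 and 5 in Neurod1+ cells. Of 28 projection neuron genes, 2 were higher (Neurod1 and the netrin receptor gene Unc5d) and 9 lower, among them Stmn2, Gap43, Mapt and Bcl11b, with median log2 folds of −0.49 and −0.39. Their median per thinned cell was 64 and 56 UMIs, against 107 and 104 in Neurod1+ and 12 and 12 in Sox2+Pax6+ cells. Stmn2, which regulates microtubules in growing axons, stood at 141 and 96.1 CPM against 916 and 753 CPM in the other cells, whereas Dcx, a microtubule-associated protein of migrating neurons, stood at 579.9 and 513 CPM against 584 and 539.7 CPM.

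The next lists stand beside 2.77% of all genes measured that were 2-fold higher and 12.3% that were lower, and none was tested against these shares. Of 37 genes of migration, adhesion and guidance, 4 were 2-fold higher (Cxcl12, Unc5d, Dcc and Sema5a) and 16 lower, among them Cxcr4, Robo1, Flrt2 and Flrt3, with median log2 folds of −0.27 and −0.19. None of 22 layer identity genes was 2-fold higher and 5 were lower, among them Bcl11b, Sox5, Tle4 and Ldb2, with medians of −0.35 and −0.28. Of 24 measured pallial patterning genes, a list drawn up after values were seen, 8 were higher, among them Emx1, Emx2, Lhx2, Dmrt3, Dmrta2 and Tfap2c, and only Zic2 was lower, with medians of 0.38 and 0.29. Of 13 immediate early and stress genes, 2 were higher (Egr1 and Btg2) and 3 lower (Junb, Atf3 and Nr4a1), with medians of −0.20 and −0.21. Of 21 imprinted genes, also listed after values were seen, 1 was higher (Grb10) and 8 lower, among them Igf2, H19, Meg3 and Dlk1, with medians of −0.47 and −0.52. Of 20 genes of Syncrip, the hnRNPs and related RNA-binding proteins, 1 was higher (Elavl4) and 1 lower (Lin28b), with medians of 0.14 and 0.15.

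Lists of cells outside the lineage were mostly lower: 9 of 11 ganglionic eminence genes measured were at least 2-fold lower (median log2 folds −4.41 and −3.63), as were 9 of 10 microglial (−4.32 and −3.34), 8 of 8 endothelial (−4.72 and −1.76), 5 of 5 pericyte (−5.85 and −2.19) and 5 of 7 Cajal-Retzius genes (−2.36 and −2.64). The 1 gene among them that was higher was Ebf3, on the Cajal-Retzius list. Of all genes measured, 12.3% were 2-fold lower and 2.77% higher. None of 4 fibroblast or 5 red blood cell genes was 2-fold lower in both libraries, with medians of −0.10 and −3.52 and of −0.07 and −3.04, and the single WT barcodes named above held most of their UMIs.

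The cell cycle genes that the gate left out of its rule were low as well. Of 52 genes of G2 and M phase other than Top2a and Mki67, 39 were at least 2-fold lower than in the other cells, with median log2 folds of −2.42 and −2.38. Ccnb1, the mitotic cyclin, stood at 3.32 and 5.48 CPM against 41.0 and 43.2 CPM, and Cdc20, an activator of the anaphase-promoting complex, at 6.56 and 9.66 CPM against 49.7 and 48.2 CPM. Per thinned cell the G2/M list gave a median of 11 UMIs in mitosis-low IPs of both libraries, the same as in Neurod1+ cells, against 75 and 70 in cycling IPs. Of 43 S phase genes 12 were 2-fold lower and none higher, with medians of −0.45 and −0.76. Beside both lists, 12.3% of all genes measured were 2-fold lower and 2.77% higher. The S phase list gave a median of 5 UMIs per thinned mitosis-low IP in both libraries, 4 in Neurod1+ cells, 16 and 19 in cycling IPs and 15 and 21 in Sox2+Pax6+ cells.

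A minority of mitosis-low IPs carried S phase transcripts above the level of the neurons. More than 8 UMIs of the S phase list, the 95th percentile of Neurod1+ cells, were found in 11.8% (9.82 to 14.1) of the WT and 12.2% (10.1 to 14.4) of the cKO mitosis-low IPs, against 74.6% and 86.0% of cycling IPs. In the WT library 151 cells lay within 1 UMI of that limit, so the share is a cut through a range and not a class of cells. Among 23 G1 cyclins and cell cycle inhibitors, 4 were 2-fold higher (Cdk6, Btg2, Gadd45a and Gadd45g) and 3 lower (Cdkn1a, Cdkn2c and Gadd45b), with median log2 folds of 0.33 and 0.28. The shares over all genes measured were 2.77% and 12.3%. Cdk6, a G1 kinase, stood at 167 and 129 CPM against 56.6 and 55.3 CPM, Ccnd2, a D-type cyclin, at 522 and 548 CPM against 345 and 371 CPM, and the inhibitor Cdkn1b at 195 and 181 CPM against 130.2 and 118 CPM.

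**Figure D3:**
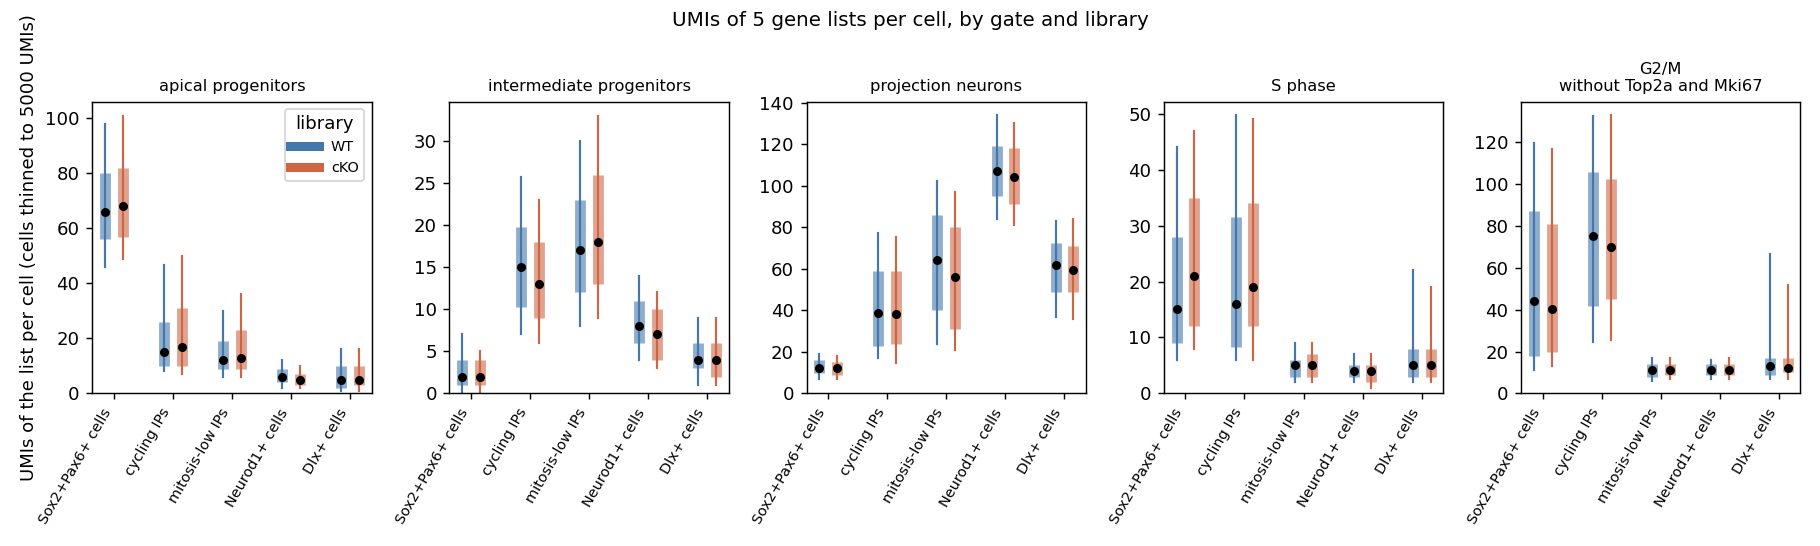
UMIs of 5 gene lists per cell thinned to 5000 UMIs (y axes, from 0) in 5 gates (x axis), WT in blue and cKO in orange, with points for medians, thick bars for quartiles and thin lines for the 10th to 90th percentile of cells. Mitosis-low IPs lie between Sox2+Pax6+ and Neurod1+ cells for the apical progenitor and projection neuron lists and near Neurod1+ cells for the S phase and G2/M lists.

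Mitosis-low IPs were not uniform. Pax6, a transcription factor of apical progenitors, had a UMI in 47.99% of the WT and 50.9% of the cKO thinned cells, and Neurod1, a bHLH factor of IPs leaving the cycle and of young neurons, in 54.9% and 55.2%. In Dlx+ cells the shares were 10.6% and 11.3% for Pax6 and 3.08% and 5.39% for Neurod1. Before thinning, 50.1% of WT and 48.3% of cKO mitosis-low IPs had at least 3 UMIs of Neurod1, the minimum of the Neurod1+ gate. Only the Eomes limit keeps these cells out of that gate, and whether some are newborn neurons was not tested. Split by both genes, 233 WT cells (25.3%) and 229 cKO cells (24.9%) had Pax6 only, 209 (22.7%) and 240 (26.1%) had both, 297 (32.2%) and 268 (29.1%) had Neurod1 only and 182 (19.8%) and 184 (20.0%) had neither. Cells without a UMI of a gene after thinning may still express it, so the neither group is set partly by depth.

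Genes that the split did not use followed it in both libraries. Vim, an intermediate filament gene of radial glia, stood at 1132 CPM (WT) and 1410.5 CPM (cKO) with Pax6 only, at 285 and 318 CPM in cells with both, and at 202 and 294 CPM in cells with Neurod1 only. Gadd45g followed the same order, at 1003 and 1625 CPM, then 447 and 601 CPM, then 343 and 601 CPM, with the last pair of groups alike in the cKO. Hes6 stood at 374 and 489.96 CPM with Pax6 only against 203 and 287 CPM with Neurod1 only. The opposite order held for neuronal genes: Unc5d stood at 867 and 535 CPM with Pax6 only and at 2818 and 2699 CPM with Neurod1 only, Dcx at 311 and 229 against 717 and 707 CPM, and Neurod6, a bHLH factor of projection neurons, at 513 and 353 against 1037 and 910 CPM. Tubb3, a neuronal tubulin, moved less, from 500.4 and 481 to 817 and 772 CPM. Cells with neither gene lay between, nearer to those with Pax6 only, for Vim (808 and 1046 CPM), Gadd45g (873 and 1404 CPM) and Unc5d (1173 and 824 CPM). The subgroups came from the same cells and share a rule, so these orders are a description without a test.

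**Figure D4:**
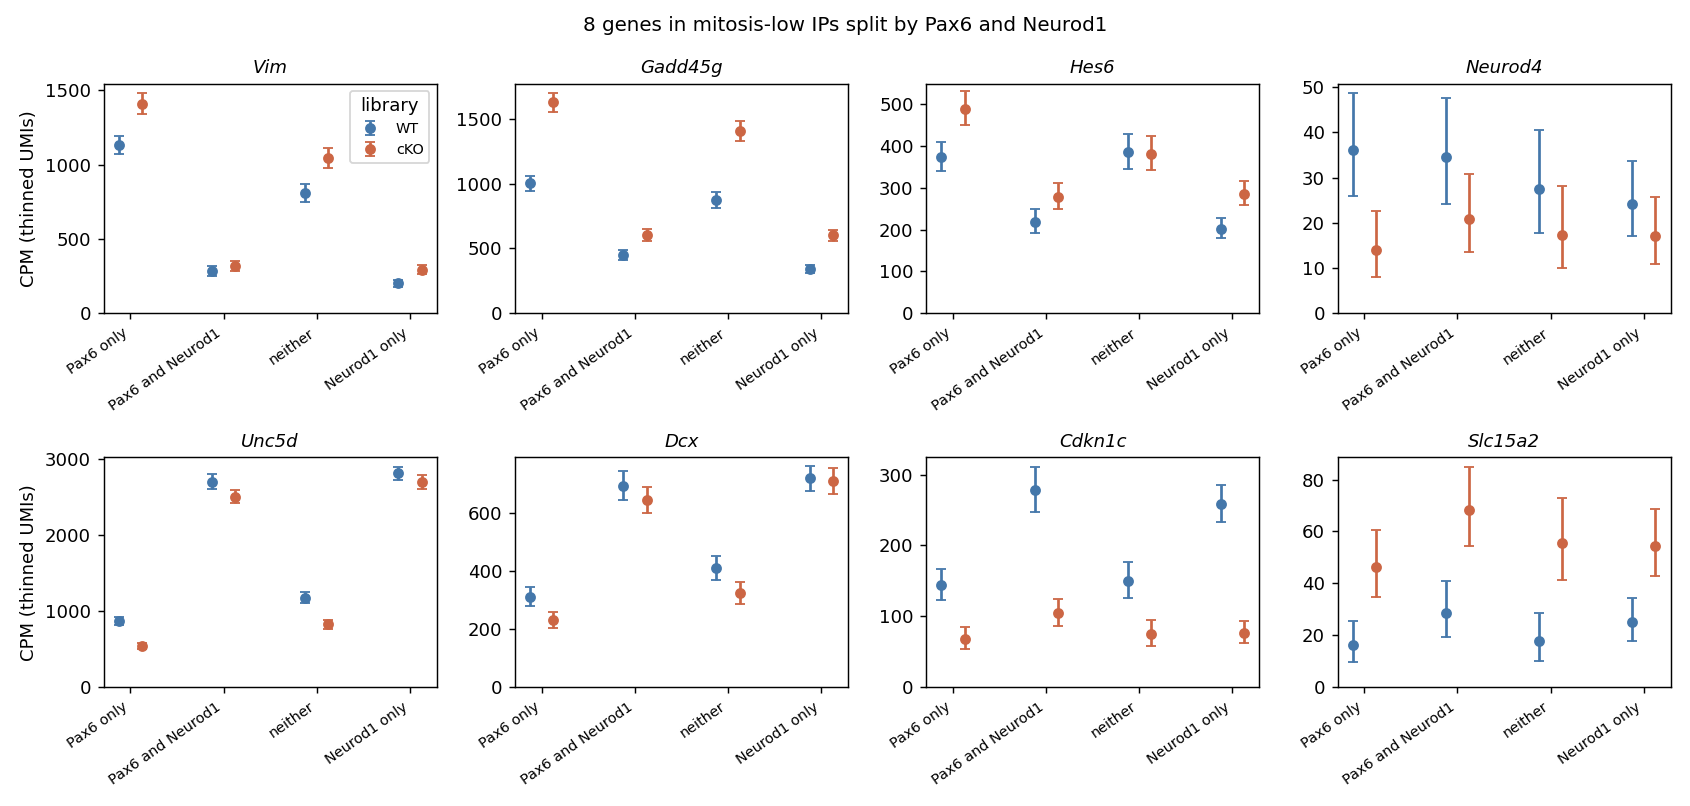
CPM of 8 genes (y axes, from 0, summed over cells thinned to 5000 UMIs) in mitosis-low IPs with Pax6 only, both Pax6 and Neurod1, neither, or Neurod1 only (x axis), WT in blue and cKO in orange, with 95% counting intervals as bars. Vim and Gadd45g are highest with Pax6 only and Unc5d and Dcx highest in cells with Neurod1. Cdkn1c is lower and Slc15a2 higher in the cKO library in all 4 groups.

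Between the genotypes, the mitosis-low IPs of both libraries were alike for most genes. Of 9483 genes with at least 200 UMIs over the mitosis-low IPs of both libraries, 154 (1.62%) had a log2 ratio of cKO over WT of at least 0.5 and 123 (1.3%) of at most −0.5. The median ratio was 0.00 and the quartiles −0.09 and 0.10. These are differences between 1 embryo and 1 other, and no count of changed genes can be drawn from them.

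In mitosis-low IPs Syncrip itself stood at 267 CPM (3456 UMIs) in the WT library and 285 CPM (3483 UMIs) in the cKO library, a log2 ratio of 0.10 (0.03 to 0.16). In the other gates the ratio was 0.03 in cycling IPs, 0.01 in Sox2+Pax6+, 0.18 in Neurod1+ and −0.21 in Dlx+ cells. UMIs are read at the 3′ end of the RNA (Syncrip lies at chr9:88447009-88482574 on the minus strand), outside the floxed exons, and they do not check the deletion. Hnrnpr, the closest relative of Syncrip, stood at 284 and 281 CPM (−0.02). Of 19 measured genes of Syncrip, the hnRNPs and related proteins, none reached a log2 ratio of 0.5 either way, and their median was −0.02. Of all genes measured, 1.62% reached it upward and 1.3% downward.

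Gadd45g and Neurog1 were higher in the cKO library and Neurod4 lower, each by a log2 ratio past 0.5, while Btg2 and Mfng stayed short of it. Gadd45g had 7561 UMIs in WT and 11281 in cKO mitosis-low IPs, 584 and 923 CPM, a log2 ratio of 0.66 (0.62 to 0.70). Its ratio was 0.04 in cycling IPs, −0.85 (−1.02 to −0.68) in Sox2+Pax6+, 0.35 in Neurod1+ and −0.10 in Dlx+ cells. Within the subgroups it was higher in the cKO library in all 4. Neurog1 stood at 17.0 and 29.1 CPM (220 and 355 UMIs, 0.77, interval 0.53 to 1.02), Btg2 at 389 and 475 CPM (0.29) and Mfng at 163 and 203 CPM (0.32). Neurod4 went the other way, at 28.3 and 19.1 CPM (367 and 233 UMIs, −0.57, interval −0.81 to −0.33), and at 17.3 and 8.75 CPM in cycling IPs. Among the 15 intermediate progenitor genes, 1 was at or above 0.5 (Gadd45g) and 2 at or below −0.5 (Neurod4 and Cdkn1c), with a median of 0.05. Over all genes measured, the shares past these limits were 1.62% and 1.3%. Summed, the list stood at 3474 CPM (3442 to 3507) in the WT and 3740 CPM (3706 to 3774) in the cKO library. Gadd45g gave 584 and 923 CPM of these sums, a larger difference than that of the whole list. The other genes of the list together were thus not higher in the cKO library.

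Cdkn1c (chr7:143458339-143461050, minus strand) encodes p57, an inhibitor of cyclin-dependent kinases, from an imprinted locus. It had 2780 UMIs in WT and 980 in cKO mitosis-low IPs, 215 and 80.2 CPM, a log2 ratio of −1.42 (−1.53 to −1.31). A UMI was found in 589 WT cells (63.3%) and 393 cKO cells (42.3%), and after thinning in 44.3% (41.1 to 47.6) and 26.2% (23.4 to 29.1). The difference did not rest on a few cells, since no cell held more than 2.41% of the gene's UMIs in its library. The ratio was −0.60 in cycling IPs, −0.99 in Sox2+Pax6+ cells, where the gene was at 6.66 and 3.36 CPM, −1.41 in Neurod1+ cells and 0.01 in Dlx+ cells, where it was at 99.9 and 101 CPM. Within mitosis-low IPs it was −1.09 with Pax6 only (143 and 67.2 CPM), −1.41 with both (278 and 104 CPM), −0.99 with neither (149.5 and 75 CPM) and −1.75 with Neurod1 only (259 and 76.9 CPM). In the WT library Cdkn1c was thus most abundant in cells with Neurod1, and in the cKO library the subgroups lay closer together. Kcnq1ot1, the non-coding RNA of the same imprinted domain, stood at 301 and 281 CPM (−0.10). Of 17 imprinted genes measured, from a list drawn up after values were seen, 2 were at or below −0.5, Cdkn1c and Ndn (110.2 and 76.0 CPM, −0.53), and none at or above 0.5, with a median of −0.08. Of all genes measured, 1.3% were at or below −0.5 and 1.62% at or above 0.5, and nothing is read from this list's count.

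Of the 12 genes of largest negative ratio, Lhx9, a LIM homeodomain factor, had 324 and 111 UMIs (25.01 and 9.09 CPM, −1.46, interval −1.79 to −1.15) and lower values in the cKO library in the 4 comparison gates too, from −3.13 in Sox2+Pax6+ to −0.997 in Neurod1+ cells. Eya1, a transcriptional coactivator and phosphatase, stood at 42.1 and 20.7 CPM (−1.02), with −1.51 in Sox2+Pax6+ and 0.03 in Dlx+ cells. Lef1, a nuclear effector of Wnt signalling, stood at 27.4 and 13.3 CPM (−1.05), with −1.09 in Sox2+Pax6+ and −0.08 in Dlx+ cells. Rmst, a long non-coding RNA, stood at 104 and 50.3 CPM (−1.05), with −1.97 in Sox2+Pax6+ and 0.50 in Dlx+ cells. These 4 genes were lower in the cKO library in every gate of the cortical lineage, although Lef1 in cycling IPs was only at −0.03. Tgfb2, a TGF-beta ligand, stood at 21.8 and 9.17 CPM (−1.25), or −0.58 with the gate applied to thinned cells, and was at −1.57 in Dlx+ cells.

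Among the others of the 12, Luzp2, which encodes a leucine zipper protein, had 1571 and 559 UMIs (121 and 45.8 CPM, −1.41, interval −1.55 to −1.27), with −1.09 in Neurod1+ cells, 0.10 in Sox2+Pax6+ and −0.11 in Dlx+ cells. Like Cdkn1c it was more abundant in WT cells with Neurod1, at 182 and 53.0 CPM with Neurod1 only, against 36.9 and 18.3 CPM with Pax6 only. Kcnc2, a potassium channel subunit, stood at 47.2 and 18.8 CPM (−1.33), with −0.99 in Neurod1+ and −0.28 in Dlx+ cells. Gabrb1, a GABA receptor subunit, Grb14, an adaptor of the insulin receptor, and L3hypdh, a metabolic enzyme, stood at −1.14, −1.17 and −1.12 with 217 and 93, 153 and 64, and 154 and 67 UMIs, with Grb14 at −0.65 when the gate was applied to thinned cells. Asic2, an acid-sensing channel subunit, had 206 and 80 UMIs (−1.28), 38 and 33 of the WT ones in 2 cells, and was at 0.69 once barcodes marked as doublets were left out, so its direction rests on them.

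Of the 12 genes of largest positive ratio, Slc15a2 and Nr2f2 had the most UMIs. Slc15a2, an oligopeptide transporter, had 301 and 652 UMIs (23.2 and 53.4 CPM, 1.199, interval 1.0 to 1.40), in 180 WT cells (19.3%) and 339 cKO cells (36.5%). It was also higher in the cKO library in cycling IPs (1.46), Sox2+Pax6+ (0.91), Neurod1+ (0.93) and Dlx+ cells (1.201). Nr2f2, a nuclear receptor that patterns the caudal and ventral telencephalon, had 449 and 916 UMIs (34.7 and 74.97 CPM, 1.11, interval 0.95 to 1.28), with 1.08, 1.61, 1.17 and 0.86 in the same order of gates. Nr2f1, its relative, stood at 349.6 and 492 CPM (0.49), with 0.72 in Dlx+ cells. Of 19 pallial patterning genes measured, 2 were at or above 0.5 (1.62% of all genes) and 4 at or below −0.5 (1.3% of all genes), with a median of 0.03, but this list was drawn up after values were seen and nothing is read from its count.

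Ebf1 had the largest positive ratio, with 204 and 549 UMIs (15.7 and 44.9 CPM, 1.51, interval 1.28 to 1.75), but 207 of the cKO UMIs lay in 1 cell, without which the cKO level was 28.0 CPM. St6galnac5, a sialyltransferase gene, had 57 and 151 UMIs (1.49), 30 of the cKO ones in 1 cell, and Slit3, a secreted guidance ligand, 65 and 144 (1.23), 46 of them in 1 cell. Without barcodes marked as doublets the ratio of Ebf1 was 0.68 and that of Slit3 1.93. Lhfpl3 had 153 and 305 UMIs (1.08), 42 and 42 of the cKO ones in 2 cells. Map7, which binds microtubules, the growth factor Pdgfa, the zinc finger homeobox gene Tshz2, Adarb2, Egfem1 and the polarity gene Crb1 followed, at ratios of 1.18, 1.14, 1.12, 1.10, 1.08 and 1.03. With the gate applied to thinned cells, Ebf1 was at 0.62, Adarb2 at 0.05, Egfem1 at 0.56 and Lhfpl3 at 0.66, and without barcodes marked as doublets Adarb2 was at 0.61. Ebf1 and Adarb2 are also genes of the ganglionic eminence list, of which 3 were measured in mitosis-low IPs and 2 were above 0.5, with a median of 1.10 that is the value of Adarb2 itself. Of all genes measured, 1.62% were at or above 0.5. That list summed to 72.4 CPM (WT) and 125 CPM (cKO), 261 of its 1522 cKO UMIs in 1 cell, and its part in the ratios of these genes was not tested.

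**Figure D5:**
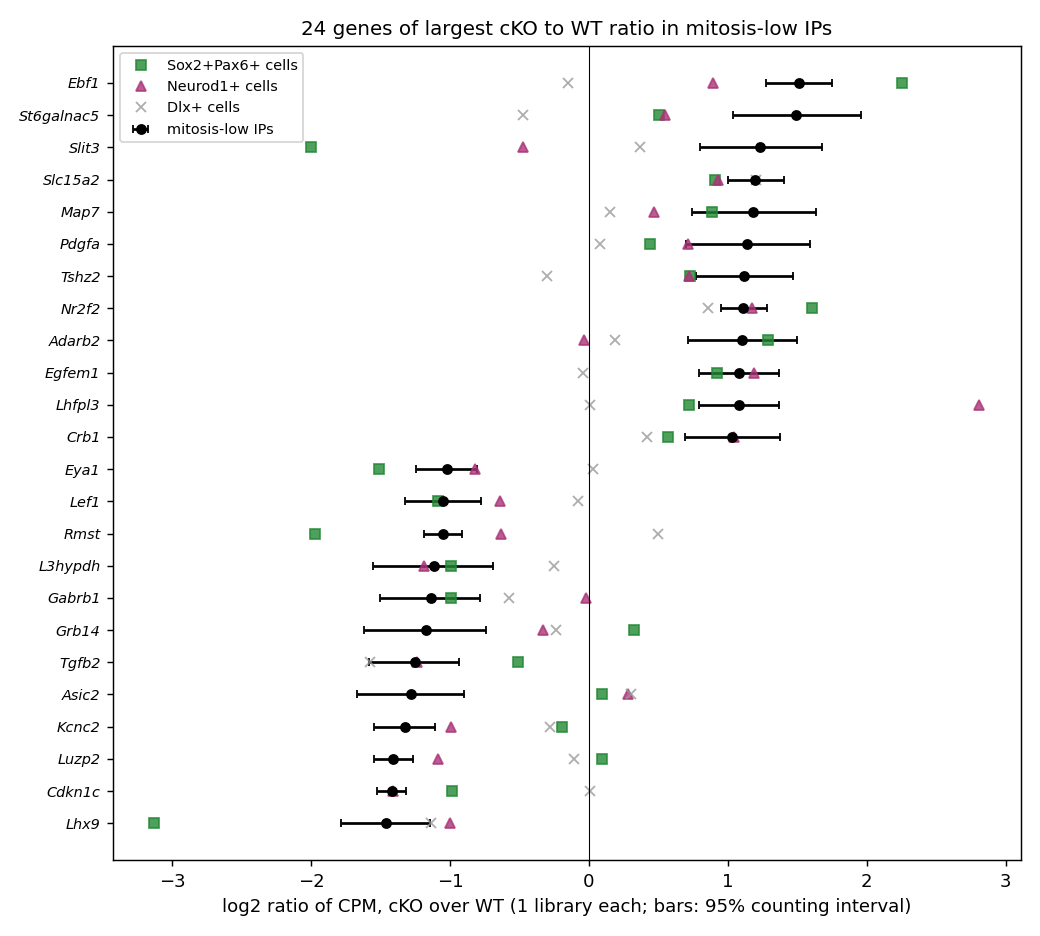
Log2 ratio of CPM of the cKO over the WT library (x axis, 1 library each) for the 12 genes of largest positive and the 12 of largest negative ratio in mitosis-low IPs (black, with 95% counting intervals), and for the same genes in Sox2+Pax6+ (squares), Neurod1+ (triangles) and Dlx+ cells (crosses). Slc15a2 and Nr2f2 are above 0 in every gate shown, and Cdkn1c lies at −1.42 in mitosis-low IPs, −1.41 in Neurod1+ cells and 0.01 in Dlx+ cells.

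The lists of the neighbouring stages were also compared between the genotypes. Of 20 apical progenitor genes measured, 15 had a ratio above 0, 2 were at or above 0.5 and none at or below −0.5, with a median of 0.16, against 0.00 over all genes measured. For this list and that of projection neurons, the shares of all genes past these limits are 1.62% and 1.3%. The median of this list was 0.23 in cycling IPs, 0.01 in Sox2+Pax6+, 0.27 in Neurod1+ and −0.05 in Dlx+ cells. The 2 were Hes1 (74 and 133 UMIs, 5.71 and 10.9 CPM, 0.93, interval 0.51 to 1.36) and Id4, an inhibitor of bHLH factors (50.6 and 80.4 CPM, 0.67, interval 0.52 to 0.81). Vim stood at 516 and 684 CPM (0.41) and Dbi at 654 and 818 CPM (0.32). Id4 was also higher in cycling IPs (0.79), Sox2+Pax6+ (0.39) and Neurod1+ cells (0.59) and at −0.14 in Dlx+ cells. Of 28 projection neuron genes 8 had a ratio above 0, none was at or above 0.5 and 1 at or below −0.5, with a median of −0.16, against 0.10 in cycling IPs, −0.06 in Sox2+Pax6+, −0.03 in Neurod1+ and 0.00 in Dlx+ cells. That 1 was Stmn2, at 141 and 96.1 CPM (−0.55, interval −0.66 to −0.44), and in Neurod1+ cells its ratio was −0.15. Cells with Neurod1 only were 32.2% and 29.1%, with Pax6 only 25.3% and 24.9%, and with both 22.7% and 26.1%. Thinned mitosis-low IPs above the apical list's 95th percentile of Neurod1+ cells were 44.7% in the WT (limit 13 UMIs) and 54.4% in the cKO library (limit 12). The lower limit favours the cKO share, and 159 WT and 131 cKO cells lay within 1 UMI of their limit. These 2 shares are therefore not directly comparable. The bearing of these shares on the ratios was not tested.

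Other lists are given as counts past the same limits. Over all 9483 genes measured, 1.62% were at or above 0.5 and 1.3% at or below −0.5. No list was tested against these shares. Of 18 Notch genes 1 was at or above 0.5 (Hes1) and none at or below −0.5 (median 0.14), and of 14 proneural, E protein and Id genes 2 were above (Neurog1 and Id4) and 1 below (Neurod4, median 0.03). Of 34 migration, adhesion and guidance genes 2 were above, Slit1 (18.1 and 30.2 CPM) and the netrin receptor Unc5c (6.02 and 10.8 CPM), and 2 below, the Slit receptor Robo1 (137 and 95.1 CPM) and Ephb1 (58.5 and 39.9 CPM), with a median of −0.02. Of 22 layer identity genes 1 was below, Zfpm2 (108 and 63.5 CPM, −0.77), and none above (median −0.11). Cux2, an upper-layer gene, stood at 83.9 and 95.1 CPM. None of 30 S phase genes was past the limit (median 0.00), and of 24 G2/M genes 2 were above (Birc5 and Cdc20, at under 11 CPM in both libraries) and none below (median 0.03). Of 18 G1 cyclins and inhibitors, Gadd45g was above and Cdkn1c below (median −0.03), and Cdk6 stood at 167 and 129 CPM. Of 8 immediate early and stress genes 1 was below, Fos (43.2 and 25.8 CPM, −0.75), with a median of −0.11. Of 2 Cajal-Retzius genes Reln was below (25.5 and 13.1 CPM, −0.96; median −0.25), and all 4 red blood cell genes measured were below (median −2.36), with most WT UMIs in 1 cell. No microglial, endothelial, pericyte or fibroblast gene reached 200 UMIs in mitosis-low IPs.

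Of a list of genes taken mainly from the study's text and from labels in its figures (Hmgn2 and Ntrk2 are such labels), 18 were measured here, 2 at or above 0.5 and 1 at or below −0.5, with a median of −0.05. The shares of all genes past these limits were 1.62% and 1.3%. The list was drawn up with results on these samples known and is no independent evidence of a direction. The 2 higher genes were Hes1 and Ntrk2, a neurotrophin receptor (29.7 and 53.4 CPM, 0.85). Hmgn2, a nucleosome-binding protein gene with many near-identical retrocopies, had 8896 and 5042 UMIs (687 and 413 CPM, −0.73, interval −0.78 to −0.68), and its ratio was also negative in cycling IPs (−0.56), Sox2+Pax6+ (−0.36), Neurod1+ (−0.60) and Dlx+ cells (−0.34). Nfix, a factor of the nuclear factor I family that acts in progenitor maturation, stood at 1097 and 803 CPM (−0.45), with −0.05 in Dlx+ cells. Its relatives Nfib and Nfia stood at 3206 and 2753 CPM (−0.22) and at 1744 and 1713 CPM (−0.03). Zbtb20, a zinc finger repressor, stood at 903 and 712 CPM (−0.34) and at −0.20 in Dlx+ cells, and Nedd4, a ubiquitin ligase, at 549.5 and 438 CPM (−0.33) and at 0.01 in Dlx+ cells. Foxp2 stood at 529.7 and 422 CPM (−0.33), Tcf4 at 3537 and 3173 CPM (−0.16) and Neurod6 at 826 and 715 CPM (−0.21), while Hmga2 had 61 and 69 UMIs, too few to be measured by the limit used.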

How the data were processed

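The authors deposited filtered gene-by-barcode matrices of raw UMI counts, written by Cell Ranger 7.0.0 per the file headers, with the build mm10 named in the submitters' processing notes. Filters, gates and summed counts were computed in Python 3.11.15 (numpy 2.4.6, scipy 1.17.1, pandas 2.3.3), doublets marked with Scrublet in scanpy 1.11.5, and figures drawn with matplotlib 3.10.9. No clustering was used. UMIs were summed per gate and library and scaled to CPM. Ratios of cKO over WT have exact conditional, levels exact Poisson and shares Clopper-Pearson 95% intervals. Only the ratio intervals were run on simulated counts, drawn from the Poisson model that they assume. That run does not bear on genes whose UMIs clump in single cells. Gene positions came from GENCODE M21, in which 32158 of 32285 features were found.

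The cells, the comparison gates and the gene lists were chosen with earlier results of these data known, and the lists of pallial patterning and imprinted genes after values were seen. Named genes are the 5 markers, the 15 of largest and 10 of smallest fold over other cells by the smaller of both libraries' folds, the 12 largest ratios each way, list members and genes taken mainly from the study's text or figure labels. Predicted, mitochondrial, X-inactivation, Y-linked, haemoglobin and gate genes were left out of the ranks. Alternatives covered gate limits, thinning, gene minimums, doublets, cell filters, the weight of cells and of Neurod1 classes, and scaling. Bulk RNA-seq and other assays of the study were not used here. Single values of some listed genes are not reported here.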

Additional observations from a re-analysis of the deposited data

Results flagged for a closer look

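The 4 named genes below had log2 ratios of cKO over WT of opposite signs in mitosis-low IPs and in another gate. Each of these ratios was at least 0.5 either way, with a counting interval that excludes 0. Smaller ratios of opposite signs, such as those of Syncrip in mitosis-low IPs and Dlx+ cells, are not listed. These differences between gates were not tested, since each gate is 1 library per genotype.

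Gadd45g was at a log2 ratio of 0.66 in mitosis-low IPs and at −0.85 in Sox2+Pax6+ cells, with 7561 and 11281 UMIs in the former and 651 and 505 UMIs in the latter (WT, then cKO). Gabrb1 was at −1.14 in mitosis-low IPs (217 and 93 UMIs) and at 0.71 in cycling IPs (32 and 84 UMIs). Lhfpl3 was at 1.08 in mitosis-low IPs (153 and 305 UMIs) and at −1.09 in cycling IPs (110 and 83 UMIs). Slit3 was at 1.23 in mitosis-low IPs (65 and 144 UMIs) and at −2.0 in Sox2+Pax6+ cells (43 and 15 UMIs). Of these, Gadd45g rests on the most UMIs, while 42 and 42 of the cKO UMIs of Lhfpl3 and 46 of those of Slit3 came from single cells.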

How the results depend on the processing

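No paired analysis was possible because each genotype has 1 library and the labels give no replicate numbers. The share of mitosis-low IPs (12.3% of WT and 10.6% of cKO cells) was 13.2% and 11.3% with at least 2 UMIs of Eomes, 10.7% and 9.07% with at least 5, 10.5% and 9.41% with at least 2 of Neurog2, 9.84% and 8.43% with no UMI of Top2a and Mki67, 8.71% and 8.06% with the gate on thinned cells, and 11.3% and 9.73% of cells with at least 200 genes. It was higher in the WT library in each of these settings, but the Clopper-Pearson 95% intervals overlapped with at least 2 UMIs of Neurog2 (9.78 to 11.2 and 8.80 to 10.04) and with the gate on thinned cells (8.04 to 9.40 and 7.46 to 8.68). The counts of genes 2-fold higher and lower became 229 and 785 with a minimum of 1000 UMIs per library, and those past a log2 ratio of 0.5 became 463 higher and 378 lower with a minimum of 50 UMIs and 29 and 33 with 1000, as fewer or more genes entered. Of 385 values of 35 named genes under alternatives, 346 moved by less than the counting interval, 38 by more, and 1 reversed: Asic2, at 0.69 without barcodes marked as doublets. Of 28 named genes at 0.5 or more either way, 25 stayed so in every alternative. The exceptions were Asic2, Adarb2 (lowest 0.05) and Neurod4 (−0.49), and Ebf1 ranged from 0.62 to 1.79. Genes of under 200 UMIs in these cells are below what this depth resolves.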
